A study of Mus musculus with 6 samples.

Results

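The PPAR, PGC-1 and ERR regulators are the nuclear receptors and cofactors that set the transcription of fatty acid oxidation and mitochondrial genes in muscle. They were chosen by name as *Ppara*, *Ppard*, *Pparg*, *Rxra*, *Rxrg*, *Ppargc1a*, *Ppargc1b*, *Esrra*, *Esrrg* and *Nrip1*, which make up 10 of the 37979 genes in the expression table. RNA came from the gastrocnemius (GAS), a hindlimb calf muscle, of 3 wildtype (WT) and 3 Kvβ2 knockout (KO) male mice at 20 weeks of age, with 1 library per mouse and no treatment. Kvβ2, encoded by *Kcnab2*, is the cytoplasmic β-subunit of voltage-gated potassium channels. The WT and KO (Kvβ2-/-) mice came from matings of heterozygous null mice, so the deletion covered all tissues and the whole life of the KO mice. The comparison asked how loss of Kvβ2 altered the muscle transcriptome, and here it was read for these regulators.

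PPARs are fatty acid-sensing receptors that bind DNA as pairs with an RXR. In muscle, PPARα and PPARδ turn on genes of fatty acid uptake and oxidation, whereas PPARγ is best known as the regulator of adipocyte formation. PGC-1α and PGC-1β are coactivators without DNA binding of their own, and they act through PPARs and through the estrogen-related receptors ERRα and ERRγ, which switch on respiratory chain and citric acid cycle genes. NRIP1 (RIP140) is a corepressor that opposes them.

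Levels are given as FPKM, fragments per kilobase of transcript relative to the depth of a library. They are scaled for length, but comparisons between genes also carry differences in GC content, as described below. In each run of values, the libraries are in the order of replicates 1, 7 and 8. Fold changes are the difference of the means of log2(FPKM + 0.1), KO minus WT, tested with limma. Benjamini-Hochberg adjustment covered all 12334 genes whose mean reached 0.5 FPKM, and genes with an adjusted p under 0.05 are named as called. On this scale the change of low genes is understated. With 3 libraries against 3, an exact permutation test of a single gene cannot give a p under 0.1.

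A few properties of the libraries bear on all values. *Kcnab2*, the targeted gene, was at 0, 0.0151 and 0 FPKM in KO and at 0.233, 0.10 and 0.110 FPKM in WT. These levels are low, since 1 fragment on 1 kilobase was worth 0.0471 to 0.0658 FPKM. By the steps between low values, the libraries held an estimated 15200000 to 21250000 fragments. Expression was also related to the GC content of the transcripts. The level of a gene relative to its mean rose by 0.18 to 0.37 log2 units per 10% of GC in the KO libraries, and it fell in the WT libraries, with slopes of -0.40 to -0.13. The slopes of the genotypes did not overlap, so GC content and genotype cannot be told apart from these libraries alone. The changes of the regulators, and the counts of the gene lists, are therefore given also after each library was corrected for GC content by a smooth curve, for the 11985 tested genes with known GC.

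The sequences 250 bases upstream of the RefSeq transcription start (GRCm38.p6) are shown for the 4 members that the comparison turns on, *Esrra*, *Ppard* and *Ppara*, which were the most different between the genotypes, and *Ppargc1a*, which was the least. Capitals mark GC boxes, the GGGCGG hexamer on either strand, which is the site of Sp1 family factors.
*Esrra* (chr19:6921809-6922058, minus strand): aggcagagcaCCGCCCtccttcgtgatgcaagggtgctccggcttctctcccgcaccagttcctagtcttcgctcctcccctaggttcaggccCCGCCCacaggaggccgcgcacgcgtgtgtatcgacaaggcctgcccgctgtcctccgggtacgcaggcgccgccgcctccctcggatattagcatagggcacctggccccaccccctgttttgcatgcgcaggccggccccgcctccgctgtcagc
*Ppard* (chr17:28232504-28232753, plus strand): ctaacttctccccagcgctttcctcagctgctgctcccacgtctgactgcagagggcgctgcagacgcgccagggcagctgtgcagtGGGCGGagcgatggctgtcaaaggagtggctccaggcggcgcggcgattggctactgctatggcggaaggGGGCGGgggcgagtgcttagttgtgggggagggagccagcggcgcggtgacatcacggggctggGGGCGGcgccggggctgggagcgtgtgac
*Ppara* (chr15:85735526-85735775, plus strand): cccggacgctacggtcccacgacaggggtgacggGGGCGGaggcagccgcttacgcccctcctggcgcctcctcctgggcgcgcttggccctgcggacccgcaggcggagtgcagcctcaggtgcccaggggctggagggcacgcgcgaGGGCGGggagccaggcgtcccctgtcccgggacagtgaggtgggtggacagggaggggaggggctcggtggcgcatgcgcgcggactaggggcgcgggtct
*Ppargc1a* (chr5:51567726-51567975, minus strand): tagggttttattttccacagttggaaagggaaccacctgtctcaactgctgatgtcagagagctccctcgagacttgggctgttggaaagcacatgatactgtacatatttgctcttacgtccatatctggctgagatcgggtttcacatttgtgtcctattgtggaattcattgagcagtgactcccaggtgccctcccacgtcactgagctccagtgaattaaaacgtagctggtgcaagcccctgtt

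These windows differed in composition. *Esrra* held 2 GC boxes in 68.4% GC, *Ppard* 3 in 69.6% and *Ppara* 2 in 76.4%, whereas *Ppargc1a* held 0 in 48.0% GC. Over all members, RefSeq gave 17 such windows for 9 of the genes, with *Ppargc1b* not among them. The GC box was found in 9 of the 17 windows, belonging to 7 members, against 32.7% of the windows of all genes. AGGTCA, the core hexamer that PPARs, RXRs and ERRs bind, was found on either strand in 4 windows of *Pparg*, *Rxra* and *Rxrg*, against 14% of all windows. The longer ERR form AAGGTCA, which contains it, was in 2 windows, of *Rxra* and *Rxrg*, against 4.08%. Neither the cAMP response element TGACGTCA nor the E-box CACGTG was in any of the 17 windows, against 1.55% and 6.02% of all windows. The absence says only that these letters are not in these 250 bases.

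In WT muscle the 10 genes covered a wide range of levels. The RXRs were the most abundant, with *Rxrg* at 43.1 ± 12.2 FPKM and *Rxra* at 27.9 ± 7.48 FPKM (mean ± SD, n = 3). They were followed by *Esrra* at 7.90 ± 1.71, *Ppargc1a* at 6.10 ± 0.475 and *Nrip1* at 4.93 ± 1.68 FPKM. *Ppard* (2.46 ± 0.731), *Esrrg* (2.43 ± 1.02) and *Pparg* (1.57 ± 0.598) lay below, and *Ppargc1b* (0.851 ± 0.180) and *Ppara* (0.796 ± 0.152) were the lowest. Neighbours in this order overlapped in range except at the steps from *Rxra* to *Esrra*, from *Nrip1* to *Ppard* and from *Pparg* to *Ppargc1b*. The order in KO muscle also began with *Rxrg*, *Rxra* and *Esrra*, and the step from *Esrra* down to *Nrip1* was then free of overlap.

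**Figure D1:**
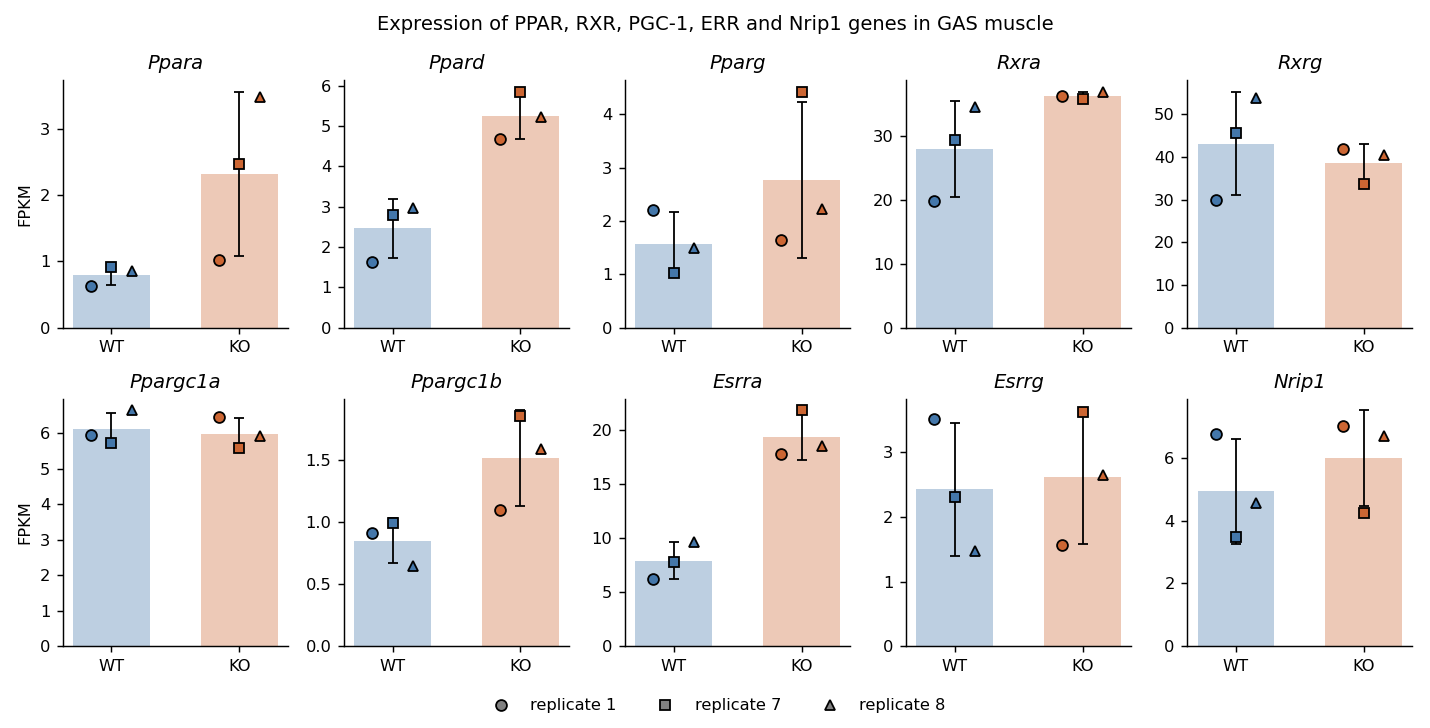
FPKM (vertical axis, linear from 0, with its own scale in each panel) of the 10 regulator genes in WT (blue) and KO (orange) GAS muscle. Bars are means, error bars are SD (n = 3) and symbols are single libraries. *Esrra*, *Ppard*, *Ppara*, *Ppargc1b* and *Rxra* had every KO library above every WT library, and the other 5 genes overlapped.

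Of the 10 genes, *Esrra* alone was called, against 0.324% of all genes tested (40 of 12334). At an unadjusted p under 0.05, 4 members were higher in KO, *Esrra*, *Ppard*, *Ppara* and *Ppargc1b*, against 15.3% of all tested genes, and 0 were lower, against 10.9%. Every KO library lay above every WT library in 5 members, against 18.3% of tested genes, and no member had all KO libraries under all WT libraries, against 16.2%. The median log2 fold change of the members was 0.57, beside 0.01 for all tested genes. After the correction for GC content, 3 members were higher at an unadjusted p under 0.05, against 5.37% of genes, 0 were lower, against 5.43%, and none was called. The 3 were *Esrra*, *Ppard* and *Ppara*, which also still had every KO library above every WT library. The share of all tested genes without overlap after the correction is not given here. The median of the members was then 0.40, beside -0.002 for all tested genes. The members, and the gene lists below, were chosen with earlier results of these data known. Their counts and medians are therefore a description and not a test of the set.

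*Esrra* (ENSMUSG00000024955, chromosome 19, 6910977 to 6921813, minus strand, GRCm38) encodes ERRα, the ERR that drives respiratory chain genes together with PGC-1α. It was at 17.7, 21.8 and 18.5 FPKM in KO and at 6.25, 7.78 and 9.68 FPKM in WT. The lowest KO library thus stood well above the highest WT library. The means were 19.3 ± 2.15 and 7.90 ± 1.71 FPKM (SD, n = 3), a ratio of 2.44. *Esrra* rose in KO by 1.30 on the log2 scale (SE 0.17, 95% interval 0.89 to 1.70, adjusted p = 0.0435). This call was close to the threshold. With 1 library left out in turn the change stayed between 1.14 and 1.45, but the gene was called only without WT replicate 8 (adjusted p = 0.0260), and the adjusted p reached 0.204 without KO replicate 7. It was not called either with a pseudocount of 1 FPKM, without the filter, with quantile normalization, with a replicate block or without genes listed at 0. After the GC correction the change was 0.74 (SE 0.12, 95% interval 0.47 to 1.01, adjusted p = 0.161), and the lowest KO library was 0.52 log2 units above the highest WT library. At its 5′ end *Esrra* overlaps *Trmt112* on the opposite strand by 73 bases, and it is not given in the sources used here whether fragments were assigned by strand. *Trmt112* was at 21.0, 20.6 and 19.9 FPKM in KO and 13.5, 16.8 and 17.4 FPKM in WT.

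*Esrrg* (ENSMUSG00000026610, chromosome 1, 187608791 to 188214885, plus strand) encodes ERRγ, which is known from oxidative, slow fibers. Its level was 1.56, 3.63 and 2.64 FPKM in KO and 3.51, 2.31 and 1.47 FPKM in WT. The genotypes covered nearly the same range. The log2 fold change was 0.10 (SE 0.38, adjusted p = 0.883), and it ran from -0.20 without WT replicate 8 to 0.42 without KO replicate 1. Corrected for GC content, it was 0.38 (adjusted p = 0.735). Within each library, *Esrra* stood at 11.4, 6.0 and 6.98 times *Esrrg* in KO and at 1.78, 3.37 and 6.60 times in WT. These ratios overlapped between the genotypes (exact permutation test, two-sided, p = 0.2). They also carry a difference in GC content, with 58.4% for *Esrra* and 43.6% for *Esrrg*.

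Among the PPARs, *Ppard* (ENSMUSG00000002250, chromosome 17, 28232700 to 28301474, plus strand) encodes PPARδ, the form that is most abundant in muscle fibers. It was at 4.69, 5.85 and 5.22 FPKM in KO and at 1.62, 2.78 and 2.98 FPKM in WT. All KO libraries were above all WT libraries, and WT replicate 1 was the lowest. The means of 5.25 ± 0.583 and 2.46 ± 0.731 FPKM gave a ratio of 2.13, and the log2 fold change of 1.103 (SE 0.23, 95% interval 0.56 to 1.65) did not pass the threshold (adjusted p = 0.0716). After the GC correction it was 0.58 (adjusted p = 0.341).

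*Ppara* (ENSMUSG00000022383, chromosome 15, 85734983 to 85802819, plus strand) encodes PPARα, the form that is best known from liver and fasting. Its FPKM were 1.02, 2.47 and 3.48 in KO and 0.624, 0.910 and 0.854 in WT. The WT libraries lay close together, while the KO libraries were spread widely, and KO replicate 1 was only just above the WT. This gave a log2 fold change of 1.29 (SE 0.42, 95% interval 0.32 to 2.27, adjusted p = 0.120), the same size as that of *Esrra* with a larger error. It changed little with the GC correction (1.20, adjusted p = 0.382) and ran from 0.93 without KO replicate 8 to 1.77 without KO replicate 1.

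*Pparg* (ENSMUSG00000000440, chromosome 6, 115360951 to 115490399, plus strand), the adipocyte receptor, was at 1.65, 4.42 and 2.23 FPKM in KO and at 2.21, 1.02 and 1.49 FPKM in WT. KO replicate 7 stood apart, and the other libraries of both genotypes overlapped. Its log2 fold change was 0.72 (SE 0.39, adjusted p = 0.281), and it was 0.33 without KO replicate 7 and 0.86 after the GC correction (adjusted p = 0.512). Most markers of adipocytes were also higher in KO, but *Car3* and *Fabp4* were little changed (log2 fold change -0.04 and 0.26). Of the 9 adipocyte markers, 6 were higher at an unadjusted p under 0.05, against 15.3% of all tested genes, 0 were lower and 0 were called, with a median log2 fold change of 1.75. With the correction 5 were higher, against 5.37% of genes, with a median of 1.57. *Adipoq*, the adipokine adiponectin, was at 9.86, 40.4 and 11.1 FPKM in KO and 11.4, 2.39 and 5.0 FPKM in WT. *Plin1*, a coat protein of lipid droplets, was at 1.14, 7.37 and 1.37 FPKM in KO and 0.192, 0.138 and 0.4995 FPKM in WT (log2 fold change 2.79, adjusted p = 0.0852, and 2.26 after the correction), and *Cidec*, another one, had a log2 fold change of 2.24 (adjusted p = 0.122), or 1.83 after the correction. The summed level of all 9 markers, mostly *Car3* and *Fabp4*, was 1601 to 1936 FPKM in KO and 1465 to 2024 FPKM in WT. Without these 2 genes, which were set aside once their values were known, it was 45.9 to 176 FPKM in KO and 7.999 to 35.4 FPKM in WT, and no marker was at 0. The part of adipocytes in the *Pparg* levels was not tested. In bulk muscle, fewer cells of a type and less RNA per cell cannot be told apart.

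**Figure D2:**
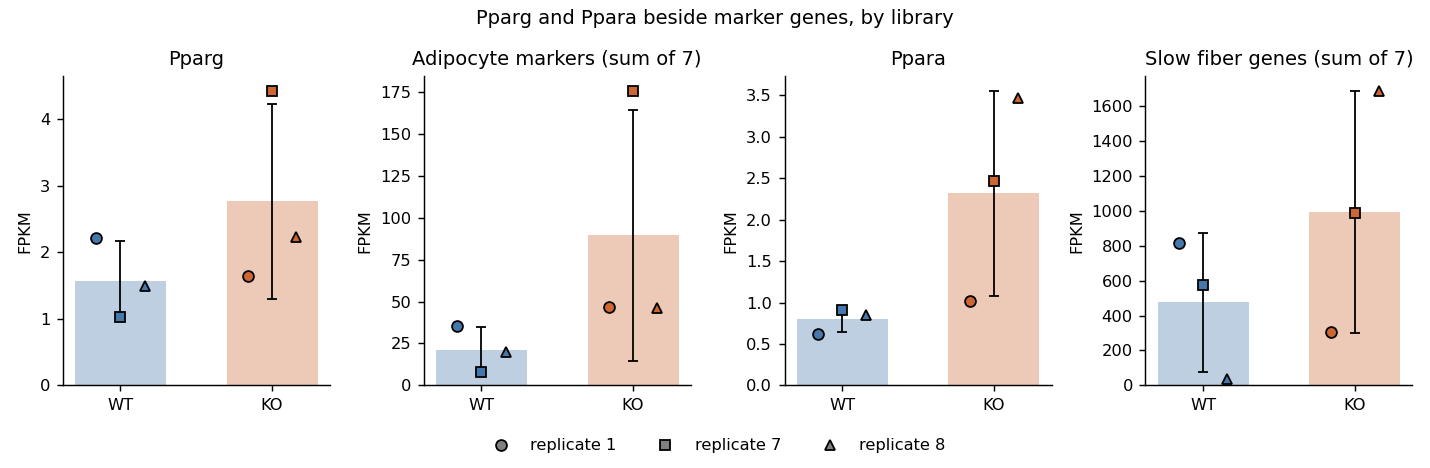
FPKM (vertical axes, linear from 0) of *Pparg* and *Ppara* beside the summed FPKM of 7 adipocyte markers (without *Car3* and *Fabp4*) and of 7 slow fiber genes. Bars are means, error bars SD (n = 3) and symbols single libraries. KO replicate 7 was the highest for *Pparg* and for these 7 adipocyte markers. KO replicate 8 was the highest for *Ppara* and for the slow fiber genes. *Car3* and *Fabp4* were left out once their values were known. In the sum of all 9 adipocyte markers, WT replicate 1 was the highest (2024 FPKM, against 1936 FPKM in KO replicate 7).

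The partners of the PPARs were abundant and differed less. *Rxra* (ENSMUSG00000015846, chromosome 2, 27676440 to 27762957, plus strand), which encodes RXRα, was at 36.3, 35.7 and 36.9 FPKM in KO and at 19.8, 29.4 and 34.5 FPKM in WT. The KO libraries were nearly equal, and the WT libraries were spread below them. The log2 fold change was 0.42 (SE 0.20, 95% interval -0.04 to 0.87, adjusted p = 0.223), it was 0.19 without WT replicate 1, and after the GC correction it was -0.11, with overlap. *Rxrg* (ENSMUSG00000015843, chromosome 1, 167598384 to 167639623, plus strand) encodes RXRγ, the form enriched in skeletal muscle. It was at 42.0, 33.6 and 40.5 FPKM in KO and at 29.9, 45.6 and 53.9 FPKM in WT. Here the WT libraries enclosed the KO libraries, and the log2 fold change was -0.12 (SE 0.22, adjusted p = 0.748), or -0.40 after the GC correction (adjusted p = 0.501).

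The RXRs were also set against each other within each library. *Rxra* stood at 0.865, 1.06 and 0.911 times *Rxrg* in the KO libraries and at 0.661, 0.645 and 0.641 times in the WT libraries. The means were 0.946 ± 0.103 and 0.649 ± 0.0107 (SD, n = 3), and the groups did not overlap (two-sided exact permutation p = 0.1, which no 3 against 3 comparison can go below). The genes differ in GC content, with 57.9% for *Rxra* and 54.2% for *Rxrg*.

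The coactivators gave different pictures. *Ppargc1a* (ENSMUSG00000029167, chromosome 5, 51454250 to 51567726, minus strand), which encodes PGC-1α, the coactivator induced by exercise and cold, was at 6.46, 5.57 and 5.91 FPKM in KO and at 5.95, 5.72 and 6.63 FPKM in WT. All 6 libraries lay within a narrow range. The log2 fold change was -0.03 (SE 0.12, 95% interval -0.31 to 0.25, adjusted p = 0.898), and 0.17 after the GC correction (95% interval -0.13 to 0.46, adjusted p = 0.668). A change larger than these intervals was thus not seen, and a smaller one in either direction was not detectable with 3 libraries per genotype.

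*Ppargc1b* (ENSMUSG00000033871, chromosome 18, 61298136 to 61400431, minus strand) encodes PGC-1β, its constitutive relative. It was at 1.1, 1.86 and 1.59 FPKM in KO and at 0.910, 0.994 and 0.649 FPKM in WT. The groups were separate by a small gap. Their difference was 0.75 on the log2 scale (SE 0.27, 95% interval 0.12 to 1.38, adjusted p = 0.145), but after the GC correction it was 0.23 (adjusted p = 0.788) and the groups overlapped. Set against *Ppargc1a* in the same library, *Ppargc1b* was at 0.170, 0.333 and 0.269 in KO and at 0.153, 0.174 and 0.0978 in WT (exact permutation test, two-sided, p = 0.2). This ratio carries a difference in GC content, with 57.9% for *Ppargc1b* and 45.5% for *Ppargc1a*.

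*Esrra* was set against its coactivator in the same way. It stood at 2.75, 3.91 and 3.13 times *Ppargc1a* in KO and at 1.05, 1.36 and 1.46 times in WT. The means were 3.26 ± 0.593 and 1.29 ± 0.212 (SD, n = 3), and the groups were well separated (two-sided exact permutation p = 0.1, again the smallest that 3 against 3 can give). The GC content was 58.4% for *Esrra* and 45.5% for *Ppargc1a*, and this ratio carries that difference. In all 5 ratios within libraries were tested, the last being *Ppara* over *Rxra* (exact permutation p = 0.3), and the lowest Benjamini-Hochberg adjusted value of these permutation tests was 0.25.

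*Nrip1* (ENSMUSG00000048490, chromosome 16, 76287400 to 76373827, minus strand), the corepressor, was at 7.02, 4.25 and 6.69 FPKM in KO and at 6.76, 3.47 and 4.55 FPKM in WT. The genotypes overlapped, with replicate 7 the lowest in both. Its log2 fold change was 0.29 (SE 0.28, adjusted p = 0.524), and 0.42 after the GC correction.

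**Figure D3:**
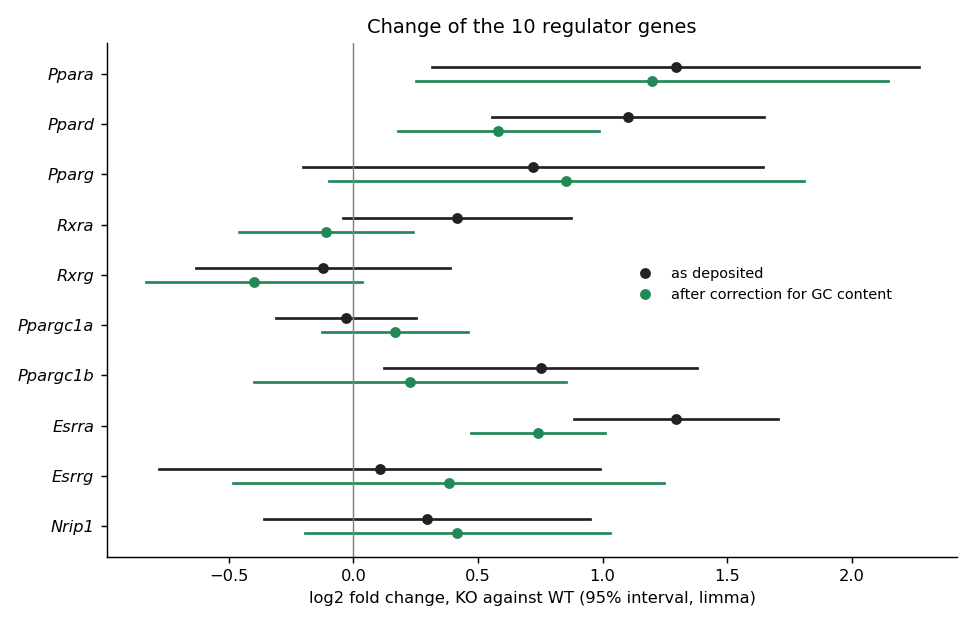
Log2 fold change, KO against WT (horizontal axis), of each regulator gene with its 95% interval from limma (n = 3 per genotype), for FPKM as deposited (black) and after the correction for GC content (green). The intervals of *Esrra*, *Ppard* and *Ppara* lie above 0 in both, and that of *Ppargc1b* only before the correction.

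The members can be placed by their GC content. Across all tested genes, the log2 fold change followed GC content with a Spearman rho of 0.70, a description over genes, which share the 6 libraries and are not independent. The median was -0.28 for genes of 42% to 44% GC and 0.57 for genes of 58% to 60%. *Esrra*, *Ppard*, *Ppargc1b* and *Rxra* had nearly the same GC content (57.9% to 58.4%), and their log2 fold changes were 1.30, 1.103, 0.75 and 0.42. The correction took 0.52 to 0.55 log2 units from each of them. It took 0.09 from *Ppara* (51.9% GC), and it added 0.12 to 0.28 for *Nrip1*, *Pparg*, *Ppargc1a* and *Esrrg* (43.6% to 46.6% GC).

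**Figure D4:**
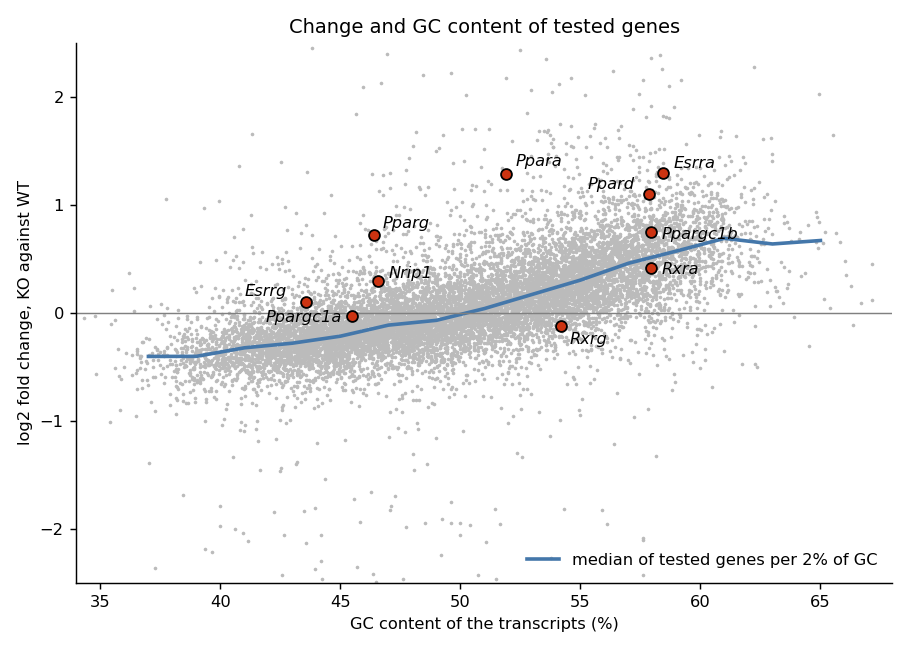
GC content of the transcripts (horizontal axis, %) and log2 fold change, KO against WT (vertical axis), of the tested genes (grey), of which 102 lie outside the plotted range. The line is the median per 2% of GC where at least 20 genes fall, and red points are the 10 regulator genes. *Rxra* and *Rxrg* lie below the line and the other 8 above it.

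Genes of most similar pattern were sought for *Ppara* and *Ppargc1a* by Pearson's r of log2(FPKM + 0.1) over the 6 libraries, which includes the difference between genotypes. For *Ppara* they included *Midn* (r = 0.993) and *Rfx1* (0.988), and 52 genes reached 0.95. For *Ppargc1a* they were *Psmc3ip* (0.993), *Itpa* (0.975) and *Dph3* (0.973), and 14 genes reached 0.95. These values are a description of 6 libraries.

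Genes around the members were read from lists, and 0 genes of any list were called. Their counts at an unadjusted p under 0.05 stand beside 15.3% higher and 10.9% lower among all tested genes, and 5.37% and 5.43% after the GC correction. Of 10 other RXR partners and related receptors, 3 were higher and 1 was lower at an unadjusted p under 0.05, with a median log2 fold change of 0.52. After the GC correction 0 were higher and 1 was lower, with a median of -0.002. *Nr1h2*, the oxysterol receptor LXRβ, had a log2 fold change of 0.86 (adjusted p = 0.0750), and *Rxrb*, the third RXR, one of 0.68 (adjusted p = 0.0904). After the GC correction these were 0.21 and 0.04. *Esr1*, the estrogen receptor α, was at -0.43 on the log2 scale (adjusted p = 0.108) and of -0.35 after the correction. Of 18 coregulators, 5 were higher and 2 lower, with a median of 0.09, and after the GC correction 3 of 17 were higher and 0 lower, with a median of -0.07. *Ncor1*, a corepressor of nuclear receptors, was at 0.07 (adjusted p = 0.663), and at 0.15 after the correction. *Crebbp*, an acetyltransferase, had a log2 fold change of 0.48 (adjusted p = 0.174), and of 0.44 after the correction. *Tbl1xr1*, a subunit of the corepressor complex, was at -0.48 (adjusted p = 0.104), and *Sirt1*, the deacetylase that acts on PGC-1α, at -0.47 (adjusted p = 0.120). After the correction they were at -0.19 and -0.16, and neither had an unadjusted p under 0.05.

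Among 10 mitochondrial biogenesis factors, 2 were higher and 4 lower, with a median of -0.18, and 1 and 1 after the GC correction, with a median of -0.005. *Polg*, the mitochondrial DNA polymerase, had a log2 fold change of 0.57 (adjusted p = 0.0722), and *Polrmt*, the mitochondrial RNA polymerase, one of 0.48 (adjusted p = 0.142). After the correction *Polg* was at 0.21 and *Polrmt* had turned to -0.15. *Gabpb1*, a subunit of NRF-2, and *Tfb1m*, a mitochondrial rRNA methyltransferase, had -0.48 and -0.44 (adjusted p = 0.120 and 0.117), and -0.24 and -0.20 after the correction. *Tfam* and *Nrf1*, which link PGC-1α to mitochondrial DNA, had -0.19 and 0.16 (adjusted p = 0.363 and 0.667), and after the correction *Tfam* had turned to 0.06 and *Nrf1* was at 0.12.

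Of 29 PPAR target genes, 5 were higher and 0 lower, with a median log2 fold change of 0.27, and the share that was higher was near the 15.3% of all tested genes. After the correction 3 were higher and 1 lower, with a median of 0.15. *Plin4*, a coat protein of lipid droplets, was at 41.5, 53.6 and 57.4 FPKM in KO and at 19.1, 28.6 and 27.0 FPKM in WT, without overlap. Its log2 fold change was 1.03 (adjusted p = 0.0667), and 0.66 after the correction. *Ucp2*, a mitochondrial carrier, had a log2 fold change of 1.00 (adjusted p = 0.143), *Cpt1b*, the muscle carnitine palmitoyltransferase, one of 0.52 (adjusted p = 0.0859) and *Ucp3* one of 0.34 (adjusted p = 0.437). After the correction these were 0.67, 0.15 and 0.05. *Pdk4*, the kinase that restrains pyruvate dehydrogenase and a strongly PPAR-responsive gene, was at 33.96, 102 and 120 FPKM in KO and at 125, 111 and 56.5 FPKM in WT, with overlap (log2 fold change -0.31, adjusted p = 0.720, and -0.22 after the correction). *Angptl4*, a lipase inhibitor and PPAR target, was at 0.275, 2.60 and 1.20 FPKM in KO and at 0.427, 0.627 and 0.462 FPKM in WT (0.87, adjusted p = 0.430, and 0.66 after the correction).

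Of 30 PGC-1 and ERR target genes, 12 were higher and 0 lower at an unadjusted p under 0.05, with a median log2 fold change of 0.25. After the GC correction 1 was higher and 0 lower, with a median of 0.12. The share of 12 of 30 is to be read beside the 15.3% of all tested genes, and the share of 1 of 30 beside 5.37%. *Uqcrc1*, a subunit of complex III, had a log2 fold change of 0.53 (adjusted p = 0.0800), and *Cox4i1*, a subunit of complex IV, also had 0.53 (adjusted p = 0.0767). Both were at 0.20 after the correction.

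**Figure D5:**
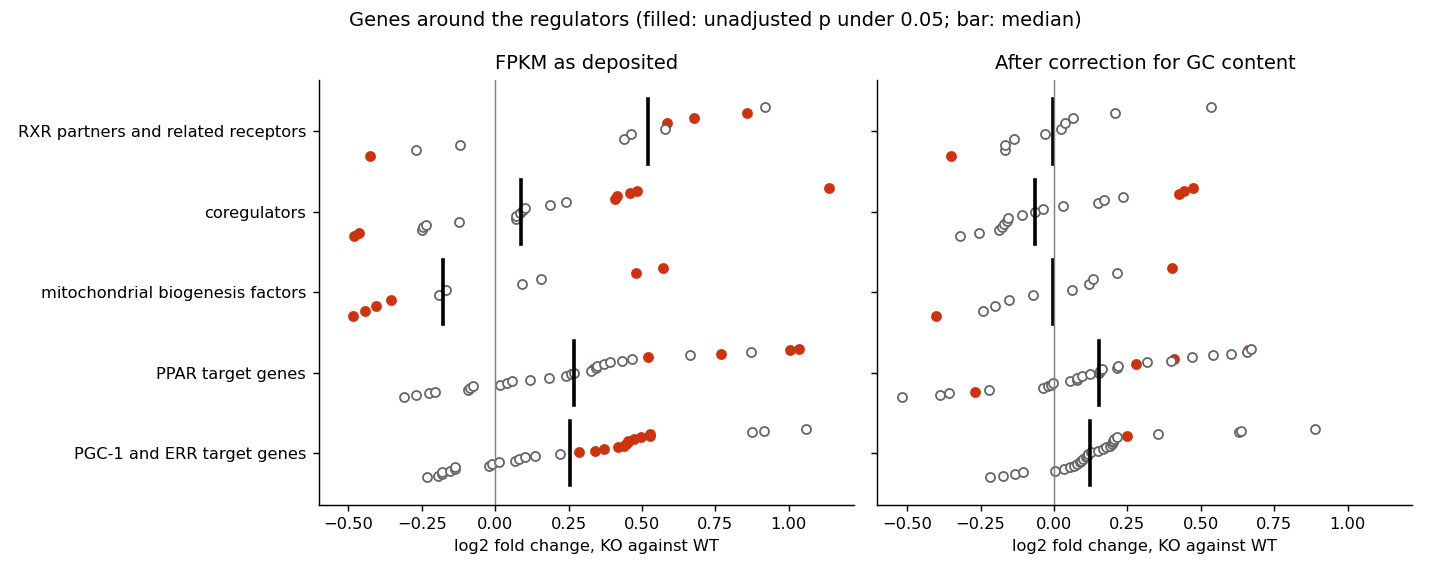
Log2 fold change, KO against WT (horizontal axes), of the genes of 5 lists around the regulators, for FPKM as deposited (left) and after the correction for GC content (right). Filled points have an unadjusted p under 0.05 and black bars are medians. The filled points of the PGC-1 and ERR target genes fell from 12 to 1 with the correction.

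ERRγ is known from slow fibers, and the slow fiber genes varied widely between libraries. Their summed level was 304, 990 and 1687 FPKM in KO and 815, 575 and 39.3 FPKM in WT, so that WT replicate 8 had hardly any. None of the 7 genes was higher or lower at an unadjusted p under 0.05, although the median log2 fold change was 2.18, and the same held after the GC correction, with a median of 1.88. *Myh7*, the slow myosin heavy chain, was at 15.2, 50.5 and 77.4 FPKM in KO and at 24.3, 22.1 and 0.0513 FPKM in WT. *Ppara* was ordered like this sum within KO but not within WT, and *Esrrg* within WT but not within KO. The part of slow fibers in these levels was not tested.

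Markers of muscle were high in all libraries. *Acta1*, skeletal actin, was at 5029 to 13917 FPKM and *Ckm*, muscle creatine kinase, at 2675 to 7971 FPKM. *Myh4*, a fast myosin heavy chain, was listed at 0 in all 6, while the fast fiber gene *Mylpf* was at 10968 to 16044 FPKM. Whether this 0 reflects the muscle or the quantification was not tested. Of 12 skeletal muscle markers 4 were higher and 0 lower at an unadjusted p under 0.05, against 15.3% and 10.9% of all genes, with a median log2 fold change of 0.73. With the correction 2 were higher and the median was 0.40. *Acta1* was at 0.83 (adjusted p = 0.104) and *Ckm* at 0.81 (adjusted p = 0.148), or at 0.34 and 0.40 after the correction. Neither of them then had an unadjusted p under 0.05. None of 6 fast fiber genes and none of 6 macrophage markers passed it, before or after the correction, with medians of 0.20 and 0.39, or -0.14 and 0.42 after it. Of 7 endothelial markers 1 was higher, *Tie1* (0.79, adjusted p = 0.0750), and 1 lower, *Kdr* (-0.44, adjusted p = 0.185). Of 6 fibroblast markers 1 was higher, *Col1a1* (1.32, adjusted p = 0.173). After the correction 0 endothelial and 0 fibroblast markers passed, with *Tie1* at 0.27, *Kdr* at -0.37 and *Col1a1* at 0.81. The summed levels of the macrophage, endothelial and fibroblast markers overlapped between the genotypes, and the part of these cells in the levels of the regulators was not tested.

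*Ppara* and *Ppargc1a* are known to follow the time of day and fasting, and the hour of collection is not given in the sources used here. Of 11 clock genes, 2 were higher and 2 lower at an unadjusted p under 0.05, against 15.3% and 10.9% of all genes, and 1 and 1 after the GC correction. *Per1* was at 14.3, 14.7 and 22.6 FPKM in KO and at 4.99, 2.81 and 6.07 FPKM in WT (log2 fold change 1.91, adjusted p = 0.0667), and *Cry2* had 0.59 (adjusted p = 0.102). *Clock* and *Cry1* had -0.76 and -0.65 (adjusted p = 0.0776 and 0.0753). After the correction *Per1* was at 1.33, *Cry2* at 0.30, *Clock* at -0.44 and *Cry1* at -0.65. *Arntl* was at 2.62, 4.18 and 3.80 FPKM in KO and at 1.84, 11.7 and 10.5 FPKM in WT, *Per2* at 4.38, 2.32 and 2.89 FPKM in KO and at 4.07, 0.548 and 0.768 FPKM in WT, and *Dbp* at 43.8, 27.6 and 30.8 FPKM in KO and at 36.2, 21.9 and 11.3 FPKM in WT. For *Arntl*, WT replicate 1 thus lay below the KO libraries and far from the other WT libraries. It was also the lowest of all libraries in 5 members, *Ppara*, *Ppard*, *Rxra*, *Rxrg* and *Esrra*. The share of all tested genes that were lowest in this library is not given here. WT replicate 1 also had the steepest GC slope (-0.40), and after the GC correction *Rxrg* was lowest in KO replicate 7. Of 10 glucocorticoid and fasting genes 4 were higher and 0 lower, led by the metallothioneins *Mt2* (1.54, adjusted p = 0.0983) and *Mt1* (1.15, adjusted p = 0.117). After the correction 3 were higher and 0 lower. *Mt2* was then at 1.28, and *Mt1*, at 0.86, no longer had an unadjusted p under 0.05. *Fkbp5* was at 13.7, 13.7 and 15.1 FPKM in KO and at 5.93, 15.7 and 17.6 FPKM in WT. Their part in the levels of the regulators was not tested.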

How the data were processed

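RNA-seq of GAS muscle from 3 KO and 3 WT mice was analysed, with groups and replicate numbers (1, 7 and 8) taken from the labels. The authors mapped reads to GRCm38 with TopHat and deposited FPKM per gene and library from Cufflinks. Tool versions, the annotation release and the use of strand are not given in the sources used here. No counts were tested. Depth was estimated from the steps between low FPKM values, of which 91.2% to 96.0% were whole fragments within 0.15, and n = 3 per genotype sets the precision. No 2 libraries shared more than 1 nonzero value among the 14983 genes above 0 in all.

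log2(FPKM + 0.1) was tested with limma 3.58.1 (variance trend, R 4.3.3) and Benjamini-Hochberg adjustment across all 12334 genes past a mean of 0.5 FPKM, after checks on simulated data. Ratios within libraries were tested by exact permutation (scipy 1.17.1). GC content came from GENCODE vM21 (GRCm38) and was known for 97.2% of tested genes. In the GC correction a loess curve (span 0.3) of each library's deviation from the gene mean was subtracted. Promoter windows came from RefSeq (GRCm38.p6), and protein sequences were not used here. Figures used matplotlib 3.10.9.

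The members and gene lists were chosen with earlier results of these data known. Named genes were the members, *Kcnab2*, some genes of each list chosen by name, up to 2 of the highest and 2 of the lowest log2 fold changes per list among genes with an unadjusted p under 0.05, and the 3 genes most like *Ppara* and *Ppargc1a*. Some genes that this rule names are not reported here. *Trmt112* and the 4 promoters shown were chosen after their values were seen. Of the listed genes, *Perm1*, *Twnk*, *Mpc1*, *Adgre1* and *Ciart* were not matched by symbol and were not analysed here, and *Vdr*, *Acot1*, *Myh4* and *Npas2* did not pass the filter. Alternatives covered the pseudocount, filter, scaling, GC content, library weights, a replicate block, genes listed at 0 and each library left out.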

Additional observations from a re-analysis of the deposited data

How the results depend on the processing

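The number of genes called, 40 with the settings of the report, was 11 with a pseudocount of 1 FPKM, 20 without a filter on low FPKM, 18 with quantile normalization, 14 with the GC correction, 13 with a replicate block, 12 with the replicate block and the GC correction, 3147 with array weights and 1 without genes listed at 0, and 12 to 126 with 1 library left out, highest without WT replicate 8. The cause was not tested. At an unadjusted p under 0.05 there were 3230 genes in the report's fit and 1294 after the GC correction. Of the members, 1 was called in the report, 0 under each of these settings except array weights, which called 5, and 0 to 1 with 1 library left out. *Esrra* was called under 5 of 23 alternatives. The members with an unadjusted p under 0.05 were 4 in the report, 7 with array weights and 2 to 5 with 1 library left out, lowest without KO replicate 7 or KO replicate 8. Of 230 recomputed member changes (10 members under 23 alternatives), 209 kept their sign and 21 did not. *Ppargc1a* was at 0.17 with the GC correction, with or without the replicate block, at 0.036 with array weights and at -0.085 to 0.27 with 1 library left out. *Rxra* was at -0.11 with the GC correction, with or without the block, and at -0.26 to 0.59 with 1 library left out. With 1 library left out *Esrrg* ran from -0.20 to 0.72 and *Rxrg* from -0.58 to 0.059. The ranges include leaving out libraries with the GC correction, which, like leaving out genes listed at 0, was chosen after seeing the data. Deviations of same-numbered libraries correlated at -0.03, -0.08 and 0.03, so the numbers were not read as pairs. Of 28 counts of list genes, 14 moved by over 1.5 times with the GC correction. With 3 libraries per genotype and no deposited counts, depth and the spread between mice limit what can be called.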
